A study of Mus musculus with 6 samples.

Results

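The kinesins, the motor proteins that move along microtubules, were examined as a gene family in mouse oocytes. Members were the genes whose symbol is Kif followed by a number and at most 1 letter, or is Kifc1, Kifc2, Kifc3 or Kifap3, taken from probe sets that carry exactly 1 gene symbol and represented by the probe set with the highest mean level. This rule gave 40 genes, measured by 45 probe sets, among 19938 genes with such a probe set. By their known roles 13 were grouped as spindle motors, 18 as transport motors with their accessory subunit Kifap3, and 8 as kinesins of cilia and signalling, while Kif12 was left outside these groups. Kifc1, a spindle motor that slides and bundles microtubules towards their minus ends, was not a member, because its probe set also lists its near-identical copy Kifc5b. Kif28 was not analysed here.

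Oocytes of wildtype females were compared with those of homozygous Brwd1 mutants, both on a mixed B6/C3H background. The labels give no tissue restriction of the mutation and no account of which part of the gene it alters. Females of 2 to 6 months received 5 IU of equine chorionic gonadotropin, which stimulates follicles to grow, and oocytes were taken 44 h later at the germinal vesicle stage, when the nucleus is intact and no spindle has formed. Each group had 3 samples, each a pool of 100 oocytes on its own array. Whether different animals supplied the pools is not in the labels; the p-values therefore reflect sample-to-sample spread alone, some or all of it possibly technical.

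Kinesins use ATP to step along microtubules or to take them apart at their ends. A meiotic oocyte builds its spindle without centrioles and depends on motors to sort microtubules into 2 poles, to position chromosomes and to pinch off the small polar body. Other kinesins carry vesicles, organelles and RNA, and a further set works in cilia, organelles that many cells carry on their surface. A germinal vesicle oocyte is largely silent in transcription late in growth and holds a stored supply of RNA. How much of the RNA measured here was stored was not tested.

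The sequences just upstream of the genes are shown first, because the spindle motors shared a short element there that the transport motors mostly lacked. RefSeq promoter windows of build GRCm38.p6, from 250 bases before to 50 bases after the transcript start, were found for 32 of the 40 members. On both strands 6 motifs were searched. The CHR element (TTTGAA) is the core of the cell-cycle genes homology region, known from promoters of genes needed for cell division, and the CCAAT box is named by its letters. The other motifs were an E2F-type core, a GC element that can overlap this core, a TATA element and a relative of the CHR element, each spelled out beside its count. The CHR element and the CCAAT box can share only an end base. The lines give the 110 bases before the start, 5′ to 3′ on the gene's strand, with matches to the CHR element and the CCAAT box, on either strand, in capitals. Kif23, Kif2c, Kif11 and Kif22 are spindle motors measured far above background, Kif15 is the spindle motor with the smallest p between genotypes, and Kif3b and Kif3a are the transport motor pair described further on. All the spindle motors shown have the CHR element in their window, so those without it, such as Kif2b, are not illustrated.
Kif23 (chr9:61946800-61946909, minus strand): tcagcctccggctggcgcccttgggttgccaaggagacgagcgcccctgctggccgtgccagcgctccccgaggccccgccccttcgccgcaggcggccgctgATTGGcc
Kif2c (chr4:117178773-117178882, minus strand): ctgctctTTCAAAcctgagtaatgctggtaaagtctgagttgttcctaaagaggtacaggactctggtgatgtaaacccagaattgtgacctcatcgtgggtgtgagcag
Kif11 (chr19:37376272-37376381, plus strand): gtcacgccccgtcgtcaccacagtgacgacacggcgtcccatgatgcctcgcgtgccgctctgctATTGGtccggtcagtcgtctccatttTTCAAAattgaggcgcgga
Kif22 (chr7:127042421-127042530, minus strand): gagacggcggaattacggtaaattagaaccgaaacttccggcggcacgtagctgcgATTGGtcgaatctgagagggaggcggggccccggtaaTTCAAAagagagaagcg
Kif15 (chr9:122950971-122951080, plus strand): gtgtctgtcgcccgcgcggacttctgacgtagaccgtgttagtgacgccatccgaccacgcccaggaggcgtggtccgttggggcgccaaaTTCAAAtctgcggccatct
Kif3b (chr2:153291306-153291415, plus strand): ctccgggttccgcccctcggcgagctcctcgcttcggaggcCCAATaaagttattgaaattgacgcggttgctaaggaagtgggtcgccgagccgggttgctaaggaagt
Kif3a (chr11:53567259-53567368, plus strand): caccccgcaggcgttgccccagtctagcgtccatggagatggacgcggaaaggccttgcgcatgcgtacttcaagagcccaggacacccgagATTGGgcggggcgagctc

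In Kif11 and Kif22 a CCAAT box at -45 and -54 was followed by a CHR element at -19 and -17, counted from the transcript start. Kif15 had a CHR element at -19 without a CCAAT box, and Kif2c had it at -103. In Kif23 the CCAAT box lay at -7 and a CHR element at 3, just past the start and so outside the printed stretch. Over the whole windows, the CHR element was found in 9 of 12 spindle motors, in 1 of 12 transport motors, Kif1a, and in 2 of 7 kinesins of cilia and signalling, against 20.2% of 27025 genes with a window. The CCAAT box was found in 7 of 12 spindle motors, 4 of 12 transport motors, 4 of 7 kinesins of cilia and signalling and 41.1% of all genes. Both elements stood together in 6 of 12 spindle motors, in 0 of 12 transport motors and in 7.97% of all genes. They also stood together in 2 of 7 kinesins of cilia and signalling, Kif26b and Kif27. The GC element, spelled GGCGG, was common in every role, in 12 of 12 transport motors, 9 of 12 spindle motors and 6 of 7 kinesins of cilia and signalling, against 51.2% of all genes. The E2F-type core, spelled GCGGGAA, stood in 1 of 12 spindle motors, 0 of 12 transport motors, 1 of 7 kinesins of cilia and signalling and 5.29% of all genes with a window. The TATA element, spelled TATAAA, stood in 1 of 12 spindle motors, 1 of 12 transport motors, 2 of 7 kinesins of cilia and signalling and 15.7% of all genes. The relative of the CHR element, which has the letters TTCGAA, was in 0 of 12 spindle and 0 of 12 transport motors, 1 of 7 kinesins of cilia and signalling and 1.80% of all genes. These are matches of letters and were not tested as binding sites.

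The arrays were alike as a whole, with Pearson's r across probe sets of 0.992 to 0.995 between any pair; probe sets do not count as replicates here. The mutated gene, Brwd1, had log2 levels of 8.91, 9.08 and 8.98 in wildtype 1, 2 and 3 and of 4.41, 4.56 and 4.50 in mutant 1, 2 and 3, which fits the labels. Levels were read against a background guide of 4.48, the 95th percentile of 1210 probe sets of olfactory and vomeronasal receptors, which oocytes are not known to use. All 10 oocyte markers, among them Zp3, Gdf9 and Mos, lay above it, with wildtype means from 7.89 to 12.18. Their summed linear level was 27830 to 28640 in wildtype and 29190 to 29630 in mutant samples, without overlap. Of the markers of other cells, 5 of 9 for granulosa and cumulus cells, 2 of 6 for theca and stroma and 2 of 6 for blood, immune and endothelial cells lay above the guide in wildtype. The summed linear level of the granulosa and cumulus markers was 597 to 747 in wildtype and 687 to 781 in mutant samples, with Amh, Fshr, Amhr2 and Ptx3 at or under the guide. Most of that sum came from Nr5a2, at a wildtype mean of 8.89. Has2 and Amhr2 were higher by 0.49 and 0.19 in the mutant samples (limma, unadjusted p = 0.0228 and 0.0373, adjusted p = 0.267 and 0.305), and 2 of the 9 markers were lower. The sum of the theca and stroma markers was 129 to 134 in wildtype and 138 to 142 in mutant samples, without overlap. Of these 6, Col3a1 was higher by 0.27 in the mutant samples (limma, unadjusted p = 0.00417, adjusted p = 0.167), and 2 were lower. The sum of the blood, immune and endothelial markers was 288 to 301 and 292 to 368, with Ptprc and Csf1r under the guide. Most of this last sum came from Pecam1, at a wildtype mean of 7.66, which reached 8.08 in mutant 3. The part of these cells in the kinesin differences was not tested.

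Most spindle motors were measured well above background in wildtype oocytes. Of the 13, 12 had a wildtype mean above the background guide, and 11 had one above 8, which 3953 of the 19938 genes reached. The share above the guide over all genes was 62.8%. The median level of the 13 was 9.36, against 5.20 over all genes. A level mixes the amount of RNA with how well the probes of a gene bind, so levels are set against the guide and not ranked between genes. In such pools, less RNA per oocyte and fewer oocytes holding it cannot be told apart.

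**Figure D1:**
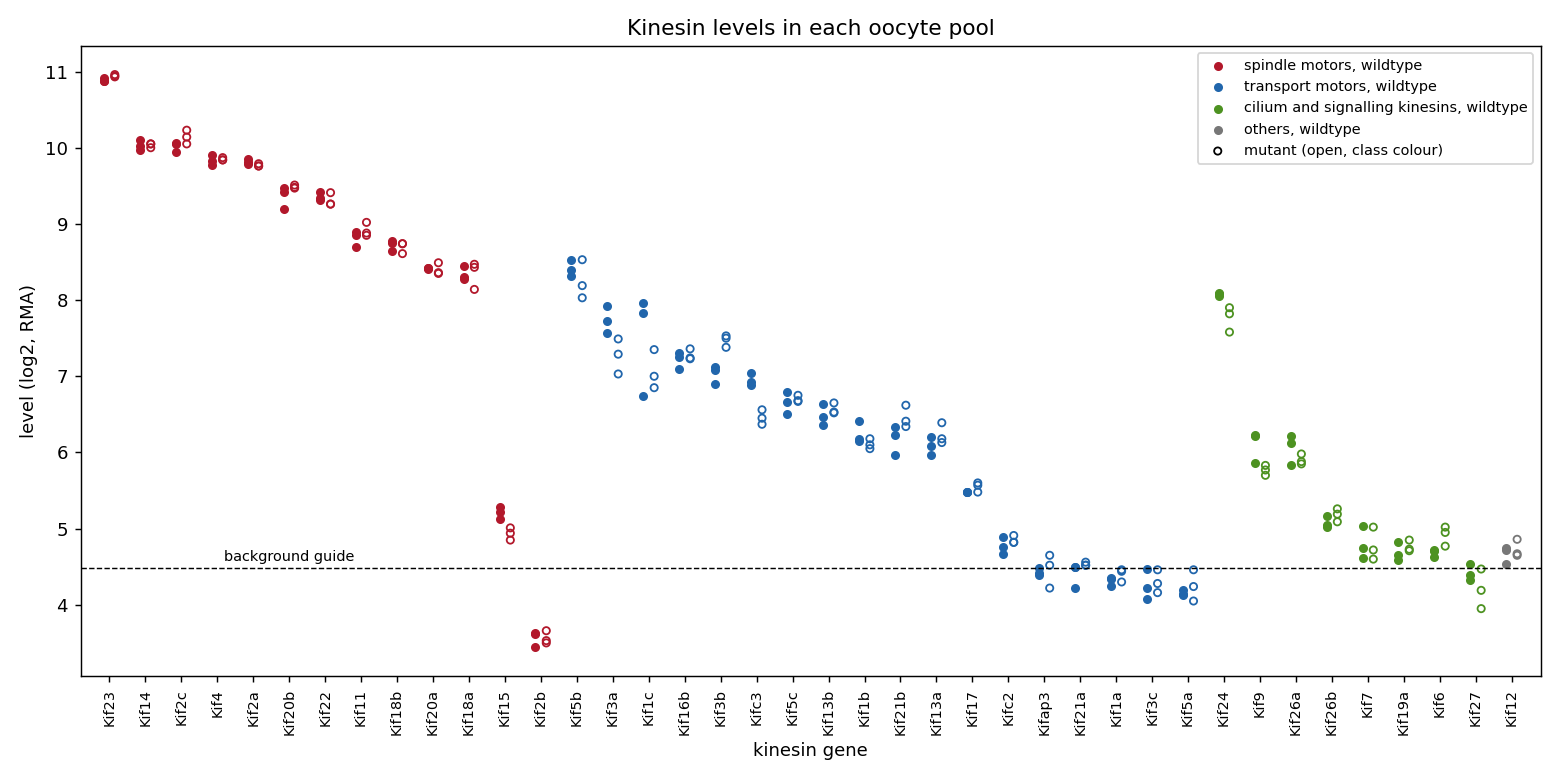
Level (log2, RMA) of each kinesin in every sample, with genes along the horizontal axis ordered by wildtype mean within each role. Filled points are the 3 wildtype samples, open points the 3 mutant samples, and the dashed line is the background guide of 4.48. Spindle motors sit above 8 except Kif15 and Kif2b, and only Kif5b and Kif24 of the other roles have a wildtype mean above 8.

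The motors that act late in division, at the central spindle and in cytokinesis, were above the guide in every case. Kif23, the motor of the centralspindlin complex, was at 10.88, 10.91 and 10.88 in wildtype 1, 2 and 3 and at 10.96, 10.93 and 10.94 in mutant 1, 2 and 3. All 3 mutant values lay above the wildtype ones, by a mean of 0.053 on the log2 scale (SE 0.051; limma, adjusted p = 0.668). Kif14, which acts at the midbody, was at 10.02, 9.97 and 10.10 in wildtype and 10.05, 10.05 and 10.00 in mutant samples, and the groups overlapped. A further probe set of Kif14 was at 2.95 in wildtype, under the guide, so the gene rests on its brighter probe set alone. Kif4, a chromokinesin that also works at the central spindle, was at 9.77, 9.82 and 9.90 in wildtype and 9.87, 9.84 and 9.84 in mutant samples. Kif20b and Kif20a, both needed in cytokinesis, had wildtype means of 9.36 and 8.42.

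Motors that shorten microtubules were above the guide with 1 exception. Kif2c, which removes wrongly attached microtubules at centromeres, was at 10.06, 10.05 and 9.95 in wildtype and 10.23, 10.05 and 10.14 in mutant samples. Kif2a, which works at spindle poles, was at 9.78, 9.81 and 9.85 in wildtype and 9.79, 9.76 and 9.76 in mutant samples. For both genes the groups overlapped. Their relative Kif2b was at 3.44, 3.63 and 3.62 in wildtype and 3.50, 3.53 and 3.66 in mutant samples, under the guide in every sample. Kif18a, which damps chromosome movement, and Kif18b, which trims microtubules outside the spindle, had wildtype means of 8.34 and 8.72.

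Of the motors that push the spindle poles apart or push chromosomes outward, Kif11, the cross-linking motor that slides antiparallel microtubules, had a wildtype mean of 8.82 ± 0.10 (SD, n = 3). Kif22, a chromokinesin, was at 9.36 ± 0.053 (SD, n = 3). Kif15, which can take over part of the work of Kif11 in dividing cells, was at 5.21 ± 0.085 (SD, n = 3), above the guide in every sample.

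Of the 18 transport motors, 13 had a wildtype mean above the guide, their median level was 6.21, and 1, Kif5b, was above 8. Kif5b, the heavy chain of conventional kinesin found in most tissues, was at 8.39, 8.52 and 8.32 in wildtype and 8.53, 8.03 and 8.19 in mutant samples. Its relatives Kif5c and Kif5a, known mainly from neurons, had wildtype means of 6.65 and 4.15, the latter under the guide. Kif16b, which moves early endosomes, was at 7.10, 7.31 and 7.25 in wildtype and 7.36, 7.24 and 7.23 in mutant samples. The vesicle motors Kif13b, Kif1b and Kif13a had wildtype means of 6.49, 6.25 and 6.08, and Kif1a, which carries synaptic vesicle precursors, one of 4.31. The 5 transport genes at or under the guide in wildtype were Kif1a, Kif3c, Kif5a, Kif21a and the accessory subunit Kifap3. Under a stricter guide, the 99th percentile of the receptors at 5.70, 11 spindle and 11 transport motors remained above it.

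Kif1c, a motor of vesicles, varied between wildtype samples more than the other kinesins. It was at 7.96, 6.74 and 7.83 in wildtype 1, 2 and 3 and at 7.00, 6.85 and 7.35 in mutant 1, 2 and 3. Wildtype 2 was the lowest of all 6 samples, and its other probe set was also lower in wildtype 2, at 6.25, than in wildtype 1 and 3, at 6.66 and 6.49. The wildtype SD was 0.67, against a median of 0.10 over the kinesins. It differed by -0.44 on the log2 scale (SE 0.320; limma, adjusted p = 0.562), and by -0.83 without wildtype 2 (limma, adjusted p = 0.247). It differed by -0.22 without wildtype 1 and -0.28 without wildtype 3 (limma, adjusted p = 0.822 and 0.777).

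Among the kinesins of cilia and signalling, 7 of 8 lay above the guide in wildtype, but the median level of 4.94 was close to it. Kif24, which restrains the assembly of cilia at the centriole, lay well above the guide, with a wildtype mean of 8.07. Kif9 and Kif26a also had wildtype means above the stricter guide of 5.70. Kif9 and Kif6, motors of motile cilia and sperm tails, had means of 6.10 and 4.68. Kif26a, which has no ordinary motor activity and takes part in signalling, was at 6.12, 5.83 and 6.22 in wildtype and 5.85, 5.88 and 5.98 in mutant samples, and its relative Kif26b was at 5.05, 5.16 and 5.02 and at 5.19, 5.09 and 5.26. Kif7, a regulator of Hedgehog signalling, was at 5.03, 4.74 and 4.61 in wildtype and 4.60, 5.02 and 4.72 in mutant samples. For these 3 genes the groups overlapped. Further probe sets of Kif26b and Kif7 were at 4.32 and 4.51 in wildtype, under and about the guide, and differed by -0.0033 and 0.077. Kif27 was under the guide at 4.42, and Kif19a and Kif12 stood just above it at 4.69 and 4.66.

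The comparison of mutant with wildtype oocytes asked whether kinesin transcript levels differed with loss of normal Brwd1. No kinesin passed the threshold of 0.05 after Benjamini-Hochberg adjustment over the 23410 probe sets tested with limma: 0 of 40 passed, where 0.137% of all tested probe sets did, and the smallest adjusted p was 0.101. At an unadjusted p under 0.05 the count was 7 of 40, or 17.5%, against a background of 14.7%, and it was also 7 with limma's trend and robust settings. Of these, 2 were higher and 5 lower in the mutant samples, against backgrounds of 7.30% and 7.40% in each direction. The groups did not overlap for 9 of 40, or 22.5%, against 19.7% of all tested probe sets; 4 of these were higher, against 10.1%, and 5 lower, against 9.66%. Among the 33 kinesins whose mean was above the guide, a choice made after seeing the data, 7 had an unadjusted p under 0.05, or 21.2%, against 19.7% of all such genes. With all 6 samples, none of these shares stands far from its background. With 1 sample fewer the groups overlap less often for all probe sets. The count of 9 became 16 of 40, or 40.0%, without wildtype 2, against 29.0% of all tested probe sets. It became 15 of 40, or 37.5%, without mutant 1 or without mutant 2, against 33.0% and 28.7%. Over all kinesins the median difference was 0.040, against 0.010 over all tested probe sets. The background depended on level. Over the 3953 genes with a wildtype level above 8 the median was -0.047, and at an unadjusted p under 0.05 152 were higher and 556 lower.

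**Figure D2:**
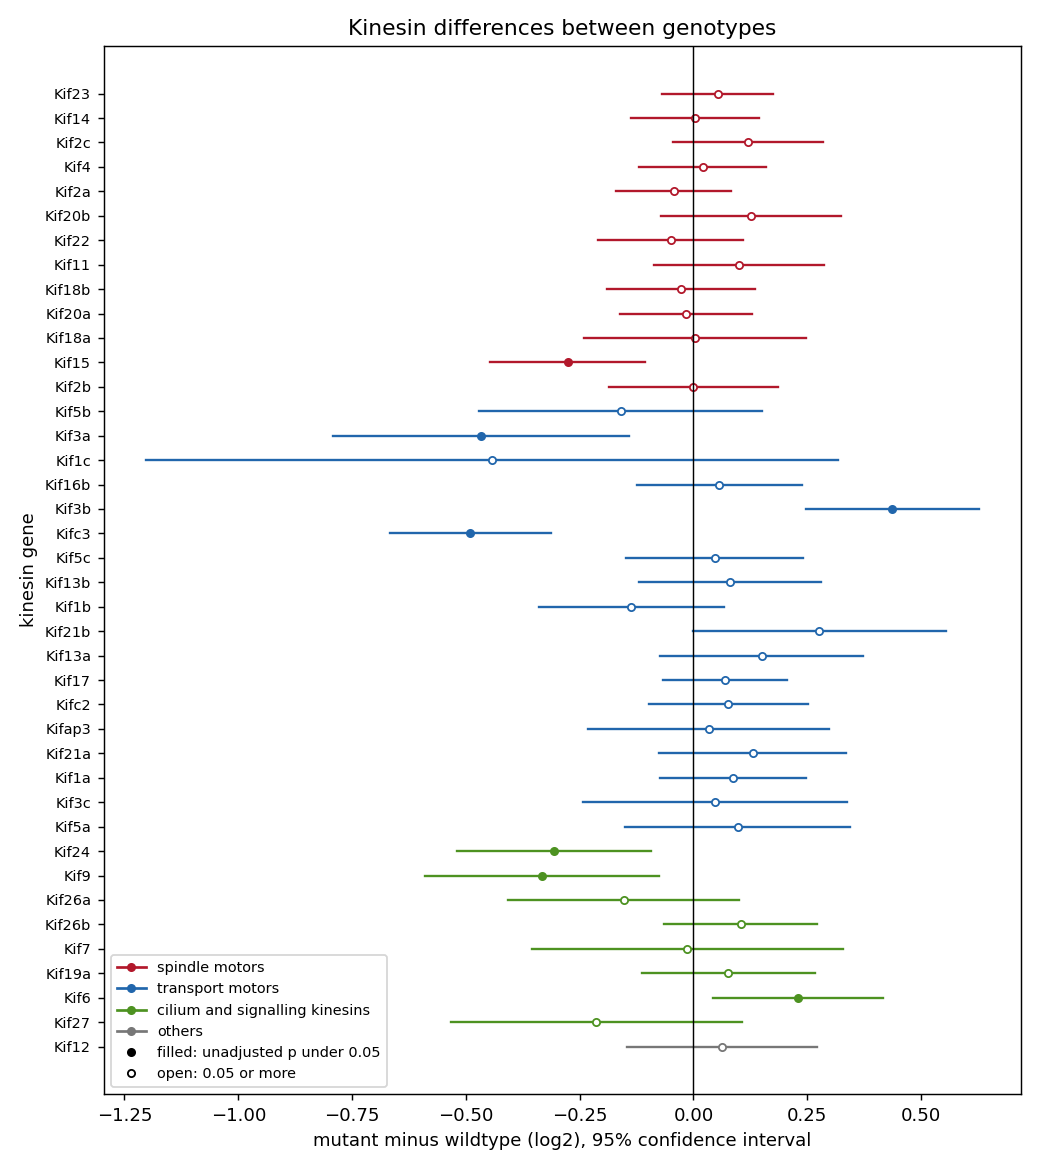
Mutant minus wildtype difference (log2) of each kinesin with its 95% confidence interval from the limma fit, ordered as in the plot of levels. Filled points have an unadjusted p under 0.05. Among spindle motors only the interval of Kif15 leaves out 0. The intervals of the transport motors are wider at the median, though not for every gene.

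The spindle motors differed little between genotypes. Apart from Kif15, the differences of the other 12 lay between -0.050 for Kif22 and 0.127 for Kif20b, with 95% confidence intervals that ran from -0.24 at the lowest, for Kif18a, to 0.32 at the highest, for Kif20b. A change of 0.5 on the log2 scale, either way, lay outside the interval of every one of the 13. Most probe sets met this bound: 3608 of the 3953 genes with a wildtype level above 8, and 19740 of the 23410 tested probe sets. Kif2b was under the guide in every sample, so its narrow interval does not exclude a change in its RNA. The median size of the difference, without its sign, was 0.043 for spindle motors and 0.113 for transport motors. It was 0.083 over all genes with a wildtype level above 8 and 0.087 over all tested probe sets. With its sign, the median difference was 0.0033 for spindle motors and -0.047 over all genes with a wildtype level above 8. The median SE was 0.068 for spindle and 0.086 for transport motors.

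Kif15 was the spindle motor with the smallest p. It was at 5.29, 5.22 and 5.12 in wildtype 1, 2 and 3 and at 4.94, 4.85 and 5.01 in mutant 1, 2 and 3. Every mutant value was below every wildtype value, by -0.28 on the log2 scale (SE 0.072; limma, adjusted p = 0.193). The Kif15 means, 5.21 in wildtype and 4.93 in mutant samples, lay above the guide of 4.48 but under the stricter guide of 5.70. Its partner in spindle bipolarity, Kif11, was at 8.70, 8.86 and 8.89 in wildtype and 9.02, 8.85 and 8.88 in mutant samples, a difference of 0.10 with overlapping groups (limma, adjusted p = 0.597).

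**Figure D3:**
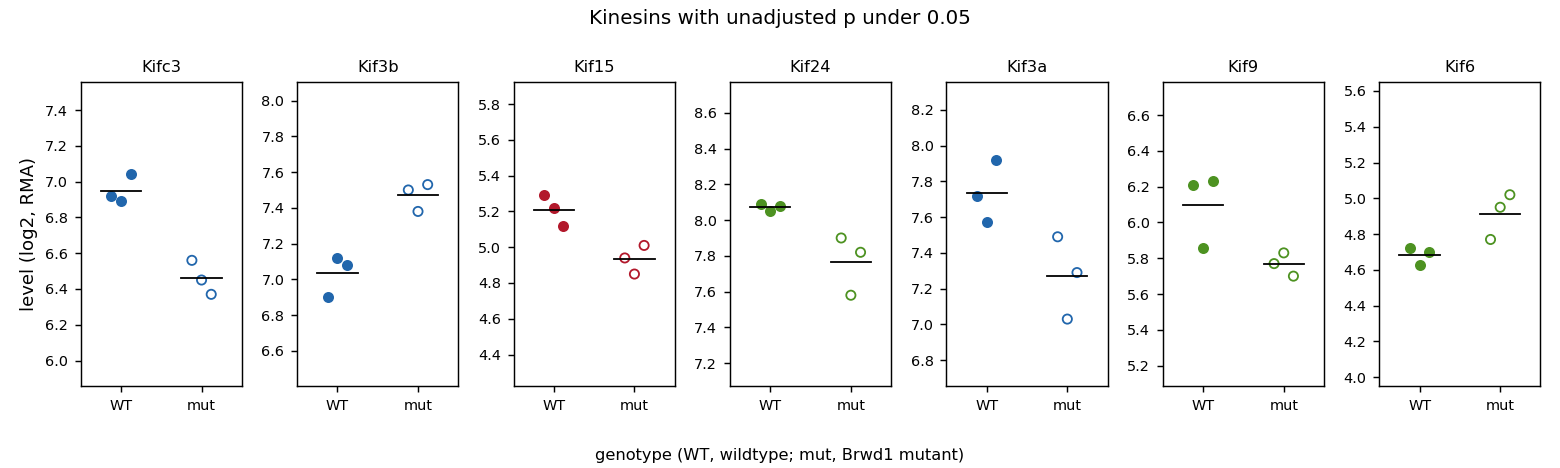
Level (log2, RMA) of the 7 kinesins with an unadjusted p under 0.05 in each wildtype (filled) and mutant (open) sample, with the group mean as a line; every panel spans the same range of log2 units. The groups do not overlap in any panel, and Kif3b is higher in the mutant samples while Kif3a is lower.

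Among the transport motors the smallest p belonged to Kifc3, a motor that runs towards microtubule minus ends and is known from cell junctions and the Golgi apparatus. Kifc3 was at 6.92, 6.89 and 7.04 in wildtype and at 6.56, 6.45 and 6.37 in mutant samples. The mutant values were all lower, with a log2 difference of -0.49, a 1.40-fold difference (SE 0.074; limma, unadjusted p = 0.000332, adjusted p = 0.101). Over the alternatives tried, the adjusted p of Kifc3 ran from 0.0746 to 0.241.

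Kif3a and Kif3b encode the motor subunits of the heterotrimeric kinesin that carries cargo into cilia and moves vesicles elsewhere in the cell, with Kifap3 as the subunit that binds cargo. Kif3b was at 6.90, 7.12 and 7.08 in wildtype and at 7.50, 7.38 and 7.53 in mutant samples, higher by 0.44 on the log2 scale (SE 0.080; limma, adjusted p = 0.123). Kif3a was at 7.72, 7.57 and 7.92 in wildtype and at 7.49, 7.03 and 7.29 in mutant samples, a change of -0.47 on the log2 scale (SE 0.137; limma, adjusted p = 0.222). The mutant values of Kif3b were all higher and those of Kif3a all lower than the wildtype ones, so the subunits stood on opposite sides. Kifap3 was at 4.42, 4.39 and 4.48 in wildtype and at 4.22, 4.65 and 4.52 in mutant samples, about the guide, with overlapping groups.

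The log2 level of Kif3b minus that of Kif3a, a quantity chosen after the values were seen, was -0.82, -0.45 and -0.84 in wildtype 1, 2 and 3 and 0.010, 0.35 and 0.24 in mutant 1, 2 and 3. Its mean moved by 0.90, from -0.70 ± 0.22 to 0.20 ± 0.17 (SD, n = 3 per group). The groups did not overlap, and an exact permutation test over samples, two-sided, gave p = 0.1, the smallest it can give with 3 against 3. That p follows from choosing the quantity for its separated groups, neither subunit passed the adjusted threshold, and the values are given as a description. Kif3c, the other partner of Kif3a, was at 4.25 in wildtype and 4.30 in mutant samples, and Kif17, a motor of cilia and dendrites, at 5.48 and 5.55.

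No other transport motor had an unadjusted p under 0.05. Kif21b, known from neurons and immune cells, came nearest, from 6.18 ± 0.19 to 6.46 ± 0.15 (SD, n = 3 per group), a difference of 0.28 (limma, unadjusted p = 0.0505). Its unadjusted limma p was under 0.05 in 6 of 16 alternatives, among them the replicate number as a block, at 0.0113, and its adjusted p ran from 0.255 to 0.587. Of the 18, 13 had a difference above 0 and 5 below it. Over the 23410 tested probe sets, 12339 were above 0 and 10826 below. The median of the 18 was 0.063, and it was 0.0067 after each array was centred on its median. For 13 of the 18 a change of 0.5 either way lay outside the 95% confidence interval, against 19740 of the 23410 tested probe sets. The 5 transport motors for which it did not were Kifc3, Kif3b, Kif3a, Kif1c and Kif21b. The 13 include Kif1a, Kif3c, Kif5a, Kif21a and Kifap3, at or under the guide in wildtype, where a narrow interval does not exclude a change in RNA.

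Of the 8 kinesins of cilia and signalling, 3 had an unadjusted p under 0.05, or 37.5%. The background was 14.7% of all tested probe sets and 19.7% of genes with a mean above the guide. Kif24 was at 8.09, 8.05 and 8.08 in wildtype and at 7.90, 7.58 and 7.82 in mutant samples, all lower, by -0.31 on the log2 scale (SE 0.089; limma, adjusted p = 0.222). Kif9 was at 6.21, 5.86 and 6.23 in wildtype and at 5.77, 5.83 and 5.70 in mutant samples, a difference of -0.33 (SE 0.108; limma, adjusted p = 0.252), with wildtype 2 only just above the highest mutant sample. Kif6 was at 4.72, 4.63 and 4.70 in wildtype and at 4.77, 4.95 and 5.02 in mutant samples, a difference of 0.23 near the guide (SE 0.079; limma, adjusted p = 0.266). A further probe set of Kif6, at 4.01 in wildtype, differed by 0.080, and the mean of both differed by 0.155 (limma, unadjusted p = 0.145).

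**Figure D4:**
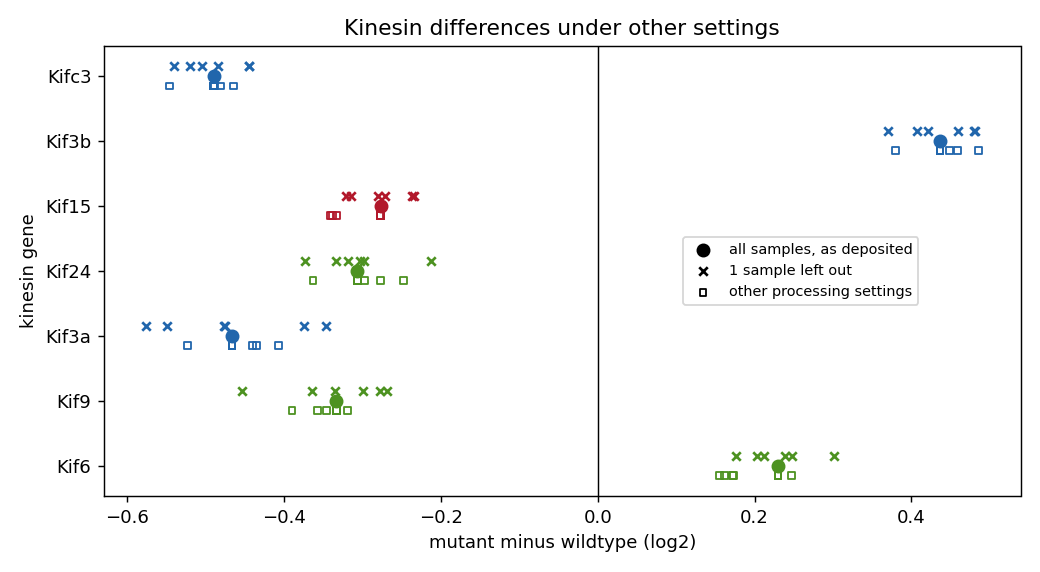
Mutant minus wildtype difference (log2) of the 7 kinesins under every setting tried. Large points are all 6 samples as deposited, crosses leave out 1 sample and squares are the other settings. All 7 kinesins keep their side of 0, which the choice of genes with separated groups in these samples fixes for the crosses.

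These differences kept their direction under every setting run. Kifc3, Kif3b, Kif24 and Kif3a had an unadjusted limma p under 0.05 in 16 of 16 settings and Kif15 in 15 of 15, since the filter at the median level removed Kif15. Kif9 had it in 13 of 16 and Kif6 in 10 of 15. None reached the adjusted threshold in any of them. These genes were chosen for an unadjusted p under 0.05 in the same arrays that every setting reuses. The counts of settings are therefore a description and no separate support.

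Genes that work with kinesins were counted from the same fit, and 0 of them passed the adjusted threshold, where 0.137% of all tested probe sets did. Of 17 kinesin light chains and cargo adaptors, 5 had an unadjusted p under 0.05, or 29.4%, 2 higher and 3 lower. The background was 14.7% of all tested probe sets and 19.7% of genes with a mean above the guide. By direction, for this and the further lists, the background over all tested probe sets was 7.30% higher and 7.40% lower. Among the 5 adaptors, Dlg4 was under the guide, at 4.01 in wildtype and 4.16 in mutant samples. Fez2, an adaptor related to one that links cargo to kinesin, was at 6.49, 6.54 and 6.24 in wildtype and at 5.82, 5.94 and 5.47 in mutant samples. All mutant values of Fez2 were lower, by -0.68 on the log2 scale (SE 0.138; limma, adjusted p = 0.144). Trak1, which ties mitochondria to kinesin, was at -0.28 (limma, adjusted p = 0.257), and Grip1, an adaptor for receptor vesicles, at -0.30 (limma, adjusted p = 0.277).

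Cytoplasmic dynein and dynactin, the motor that runs opposite to most kinesins and its activator, had 21 genes. Of these, 4 had an unadjusted p under 0.05, 2 in each direction, or 19.0% against the same 14.7% and 19.7%. The dynactin subunits Dctn2 and Dctn6 were at -0.32 and 0.45, and the dynein light intermediate chain Dync1li1 at 0.45 (limma, adjusted p = 0.215, 0.275 and 0.282). Of 28 spindle assembly partners, 4 had an unadjusted p under 0.05, 2 in each direction, or 14.3%. That was close to the 14.7% of all tested probe sets and below the 19.7% of genes with a mean above the guide. Spag5, a spindle protein, was at 7.65, 7.70 and 7.64 in wildtype and at 7.35, 7.29 and 7.49 in mutant samples, a difference of -0.29 (limma, adjusted p = 0.171). Haus6, a subunit of the augmin complex that branches microtubules, was at 0.28, and Hmmr, a spindle pole protein, at 0.18 (limma, adjusted p = 0.209 and 0.260). Cenpe, the kinetochore kinesin whose symbol falls outside the naming rule, had a wildtype mean of 9.58 and a difference of -0.050, and Prc1, which recruits Kif4 to the central spindle, was at 10.26 and 0.0067. The median difference was 0.020 for adaptors, 0.020 for dynein and dynactin and -0.028 for spindle partners.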

How the data were processed

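The deposited values are log2 values, made by the authors with Affymetrix Expression Console 1.1 and RMA, per the submitters' processing notes. RMA brings the arrays towards a common distribution, so a change in total RNA per oocyte cannot be seen, and differences of dim probe sets are compressed. The deposited array medians were 4.69 to 4.71 in wildtype and 4.71 to 4.79 in mutant samples. Per the labels' protocols, 1 ng of RNA was amplified with a NuGEN kit. For the array annotation, the genome build was not stated, so coordinates are given only for RefSeq promoter windows. The table held 35556 probe sets; the annotation gave 1 symbol for 21789, several for 1621 and listed none for 12146. Mutant minus wildtype was fitted over all 6 arrays and 23410 probe sets with a symbol, with limma 3.58.1 in R 4.3.3 (two-sided, Benjamini-Hochberg, threshold 0.05), without a filter on level or covariates. The fit was tested on simulated data, where a limit on recovery was set only for shifts far larger than the kinesin differences given here. The members, role groups, gene lists and motifs were chosen with earlier results of these data known, and the motifs after the levels were seen. Per-sample values were given for members with an unadjusted p under 0.05, the 5 with the highest wildtype mean in each role, Brwd1, and members needed for a comparison with these, such as Kifap3, Kif11 and Kif2b, chosen after their values were seen; of each list of partners, the 3 with the smallest p were named, with Cenpe and Prc1 added after their values were seen. Alternatives were a block for the replicate number, level filters, other normalizations, other eBayes settings, array weights, all probe sets, mean of probe sets, other thresholds and leaving out each array. The number of arrays limits the precision.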

Additional observations from a re-analysis of the deposited data

How the results depend on the processing

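No kinesin passed the adjusted threshold of 0.05 under any setting tried. At a threshold of 0.1 none passed with the settings otherwise kept, but the adjusted p of Kifc3 was under 0.1 in 6 alternatives, the lowest 0.0746 among probe sets above the median level, where that of Kif3b was 0.091. The count at an unadjusted p under 0.05 ran from 5 to 10 when 1 sample was left out, or 12.5% to 25% against 11.2% to 15.2% of all tested probe sets, and the count of kinesins whose groups did not overlap from 11 to 16, or 27.5% to 40.0% against 27.7% to 33.0%. The median difference of the spindle motors was 0.038 after quantile normalization again, 0.035 after cyclic loess and -0.053 after median centring, and ran from -0.010 to 0.028 without 1 sample. That of the transport motors was 0.035, 0.024 and 0.0067 in these settings, and 0.030 to 0.095 without 1 sample. Median centring moved the median of all tested probe sets from 0.010 to -0.047, so neither class median is read as a shift. The count over all tested probe sets, 32, became 76 with trend and robust settings or at a threshold of 0.1, 1 when all probe sets of the table were tested, and 1 to 18 without 1 sample. Same-numbered samples did not deviate together (correlations of -0.0015, -0.031 and 0.037), so the numbers were not taken as pairs; with the replicate number as a block 1 probe set passed over all, and among kinesins 8 had an unadjusted p under 0.05.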
